A study of Mus musculus with 2 samples.

Results

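The 33 genes described here are 23 immediate early genes and 10 heat shock genes, taken by symbol from the 31053 rows of a single-cell count table of perfused mouse liver. All 33 were found. They were described as a response that tissue dissociation can evoke, by cell class and between both libraries, and the immediate early members were set against the heat shock members inside the same barcodes. The list holds no threshold on measured values, but it was chosen with earlier results of these data known.

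Both libraries came from mice on a C57BL/6 background that carried LaptTA, the tetracycline transactivator under the liver-restricted LAP promoter. The control (LaptTA;WT) had no inducible transgene, and the tetYAP group (LaptTA; tetYAP) carried a tetracycline-responsive YAP with the S127A change, which was held off by doxycycline food and switched on with regular food from 4 weeks of age, for 4 weeks. The diet of the control was not given in the sources used here. Cells were released by a perfusion with a chelator and then collagenase, and counted by 10x droplet sequencing of transcript 3′ ends with unique molecular identifiers (UMIs). Each group is 1 library, and how many mice it came from was not given in the sources used here, so no test between groups can be made, and every interval in the text is a 95% interval for counting error only. The control held 2989 barcodes and 9509885 UMIs and the tetYAP library 1524 barcodes and 6777210 UMIs, with medians of 3117 and 4150 UMIs per barcode and 0 shared barcode sequences. Yap1, the targeted gene, had 155 and 128 UMIs, or 16.3 and 18.9 CPM (UMIs of a gene scaled to a total of 1000000). Its log2 ratio over all barcodes, 0.21 (-0.14 to 0.56), held 0, so the libraries were not separable in this gene at this depth. Barcodes called hepatocyte-like below held 147 and 59 of these UMIs. Whether the Yap1 row counts transcripts of the transgene was not tested. Xist had 3 against 4859 UMIs, and the Y-linked Ddx3y, Eif2s3y, Kdm5d and Uty had 716 and 0, so sex and genotype cannot be told apart.

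Immediate early genes are transcribed within minutes of a stimulus from factors already present in the cell. Their products are transcription factors such as those of the AP-1, EGR, NR4A and KLF families, and feedback regulators that dampen the signal or destabilise messenger RNA, and their transcripts are short-lived. Enzymatic release of cells from tissue is a known trigger. Heat shock genes encode chaperones: constitutive ones that fold proteins in unstressed cells, and inducible ones that the factor HSF1 switches on through heat shock elements when proteins unfold.

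Promoters of 6 members are shown because they hold elements known from signal-induced or heat shock genes. Windows of 300 bases around the RefSeq start (build GRCm38.p6, 250 bases before it) were at hand for 26 members, 19 immediate early and 7 heat shock, and not for Egr1, Ier2, Cebpd, Myc, Hspa8, Hsp90aa1 and Hsp90ab1. The heat shock element core GAANNTTC or TTCNNGAA was in the windows of 5 of the 7 heat shock members (Hspa1a, Hspa1b, Hspb1, Hsph1 and Dnaja1) and of 1 of the 19 immediate early members (Jun), against 15.1% of all 32851 windows. The cAMP response element TGACGTCA was in 3 immediate early windows (Maff, Btg2 and Dusp1), in 0 heat shock windows and in 1.79% of all. Its core TGACG, which lies inside it, was in 10 of 19 and 4 of 7, against 20.8%. The CArG box, the site of serum response factor, was in that of Zfp36 and in 1.63% of all. The AP-1 site, TGAGTCA or TGACTCA, was in that of Hspa5 and in 5.20% of all. CCAAT was in 9 of 19 and 6 of 7 (37.4% of all), and TATAAA in 3 of 19 and 0 of 7 (13.6% of all). Both strands were searched, and a match is a run of letters, not a measured site. A member was counted if any of its windows held the match, while the shares of all are per window. Maff, Hsph1 and Dnaja1 had several windows, so for them the measures are unlike. The 150 bases before the start of each gene, read 5′ to 3′ on the strand of the gene, are given with the named element in capitals. For Fos (chr12:85473740-85473889, plus strand) the capitals mark the core TGACG, for Dusp1 (chr17:26508473-26508622, minus strand) the full element TGACGTCA, and for Zfp36 (chr7:28379229-28379378, minus strand) the CArG box. For Hspa1a (chr17:34972157-34972306, minus strand), Hspa1b (chr17:34959239-34959388, minus strand) and Hspb1 (chr5:135887769-135887918, plus strand) they mark the core GAANNTTC.
Fos: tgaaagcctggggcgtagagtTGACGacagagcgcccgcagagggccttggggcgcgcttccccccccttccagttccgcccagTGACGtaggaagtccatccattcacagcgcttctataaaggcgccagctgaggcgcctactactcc
Dusp1: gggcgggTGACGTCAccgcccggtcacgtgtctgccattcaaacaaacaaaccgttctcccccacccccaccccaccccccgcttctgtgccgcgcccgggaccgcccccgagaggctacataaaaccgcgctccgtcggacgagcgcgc
Zfp36: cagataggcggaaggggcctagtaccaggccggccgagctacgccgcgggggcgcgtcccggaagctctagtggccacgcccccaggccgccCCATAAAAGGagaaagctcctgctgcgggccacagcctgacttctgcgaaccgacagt
Hspa1a: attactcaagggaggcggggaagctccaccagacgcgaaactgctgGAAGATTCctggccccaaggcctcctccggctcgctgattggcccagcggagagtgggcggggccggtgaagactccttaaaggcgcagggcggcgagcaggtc
Hspa1b: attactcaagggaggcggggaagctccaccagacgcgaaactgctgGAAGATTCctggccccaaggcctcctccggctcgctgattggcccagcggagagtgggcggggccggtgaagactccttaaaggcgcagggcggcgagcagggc
Hspb1: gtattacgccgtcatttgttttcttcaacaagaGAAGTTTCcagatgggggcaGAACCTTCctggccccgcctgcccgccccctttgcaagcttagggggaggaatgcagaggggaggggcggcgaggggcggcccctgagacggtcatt

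Hspa1a and Hspa1b, whose starts lie 12918 bases apart on chromosome 17, were identical at 149 of the 150 bases shown. They encode the same inducible HSP70 chaperone from near-identical copies. The bases compared lie before the start, and the transcript 3′ ends that are counted were not compared. How well a UMI can be assigned to either copy was therefore not tested.

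Barcodes were put in a class by UMIs of marker genes alone, with none of the 33 members among the markers. A barcode with at least 10 marker UMIs of another liver cell type, from at least 3 markers and at 2 times the next type, was named after that type, and a barcode under 10 for every type was called hepatocyte-like. The control had 2867 hepatocyte-like, 67 endothelial cell-like and 32 macrophage-like barcodes, with 7 or fewer in each other class. The tetYAP library had 769, 191 and 281, with 106 T or NK cell-like, 43 B cell-like, 40 erythroid cell-like, 22 neutrophil or monocyte-like and 21 stellate cell-like ones. A further 4 control and 51 tetYAP barcodes had markers of several classes and were left out. The cells were labelled hepatocytes, and the 12 hepatocyte markers had a summed median of 377 and 375 UMIs in hepatocyte-like barcodes, but also 248 to 417 in every other class, so hepatocyte RNA was present in all barcodes. The reverse held as well: the 12 macrophage markers had 0.0928 UMIs per hepatocyte-like control barcode and 3.15 per tetYAP one, and the 12 endothelial markers 0.346 and 1.28, with no marker at 0. In erythroid cell-like tetYAP barcodes these lists had 4.15 and 2.88. The median mitochondrial share of hepatocyte-like barcodes was 28.2% against 56.5%. The part of these in the results on hepatocyte-like barcodes was not tested.

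In hepatocyte-like barcodes the immediate early genes were higher in the tetYAP library, and the heat shock genes lay on both sides of the control. Levels are CPM of the class total, ratios are log2 of tetYAP over control, and a gene was called where it passed 2-fold. Of the 23 immediate early members 21 were called higher and 0 lower, with a median log2 ratio of 2.64 (1.88 to 3.52, the medians of the members' interval bounds). Of all 11119 genes with at least 10 UMIs there, 19.2% were called higher and 14.1% lower, with a median of -0.10. Members with under 10 control UMIs, such as Fosb and Nr4a1, needed their tetYAP UMIs to pass this minimum. The counts of calls therefore describe and do not support. Of the 10 heat shock members 1 was called higher and 2 lower, with a median of -0.28 (-0.53 to -0.04). Immediate early UMIs numbered 2072 in the 2867 control barcodes and 2071 in the 769 tetYAP barcodes, or 0.723 (0.692 to 0.755) and 2.69 (2.58 to 2.81) per barcode. Heat shock UMIs numbered 6.14 (6.05 to 6.23) and 8.02 (7.82 to 8.22) per barcode.

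**Figure D1:**
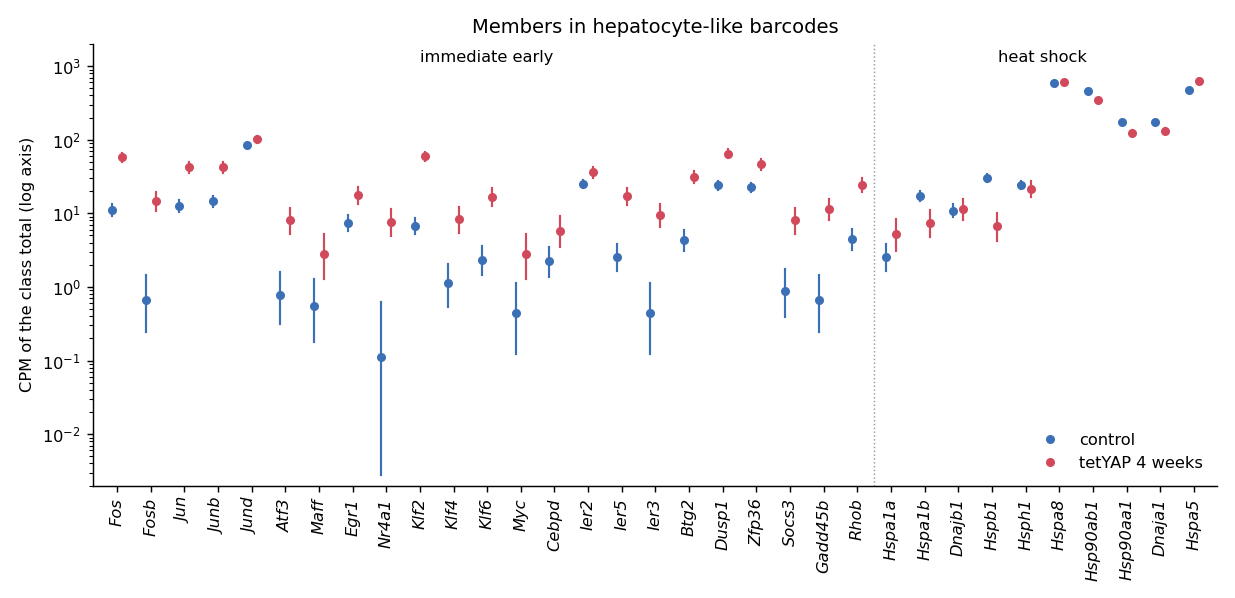
CPM of each of the 33 members in hepatocyte-like barcodes of the control (blue) and the tetYAP library (red), on a log axis, with exact Poisson 95% intervals as bars. The points of the immediate early members lie higher in the tetYAP library for all 23, while those of the heat shock members lie close together except for Hspa1a, Hspa1b and Hspb1.

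The AP-1 factors, which bind DNA as dimers, were led by Fosb. It rested on 6 control UMIs (0.668 CPM) and 48 tetYAP UMIs (14.8 CPM), a log2 ratio of 4.47 (3.24 to 5.98). Fos, its founding relative, stood at 11.1 and 58.1 CPM, a log2 ratio of 2.38 (2.03 to 2.75). Both intervals lay past 2-fold. Jun stood at 12.5 and 42.1 CPM (1.76, 1.39 to 2.13) and Junb at 14.7 and 42.5 CPM (1.53, 1.17 to 1.89). Junb fell under 2-fold with classes from clusters (0.93) and in barcodes with under 8 UMIs of the nuclear RNA Malat1 (0.37). Jund, the family member that is kept on in resting cells, had 84.8 and 101 CPM and a log2 ratio of 0.26 (0.06 to 0.44), under 2-fold. Atf3, a stress-induced partner of the Jun proteins, had 7 and 26 UMIs (3.36, 2.12 to 4.81). Maff, a small MAF factor, had 5 and 9 UMIs and a wide interval (2.31, 0.58 to 4.24).

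Of the other transcription factors, the orphan nuclear receptor Nr4a1 had 1 control UMI and 25 tetYAP UMIs, a log2 ratio of the raw counts of 6.11 (3.50 to 11.47) and of 4.52 with the control set to the floor of 3 UMIs used for all ratios. Klf2, a factor best known from endothelium, had 6.80 and 59.4 CPM (3.13, 2.71 to 3.57). Klf4 had 1.11 and 8.31 CPM (2.90, 1.81 to 4.11), and Klf6, which is widely expressed, 2.34 and 16.9 CPM (2.85, 2.11 to 3.65). These 4 lay above the median of the 23 members. Egr1, a zinc-finger factor induced by growth signals, differed less, at 7.35 and 17.5 CPM (1.25, 0.72 to 1.79), and fell under 2-fold with clusters (0.74), after thinning each barcode to 1000 UMIs (0.97) and under 8 Malat1 UMIs (0.75). Cebpd, of the acute-phase response, had 2.23 and 5.85 CPM (1.39, 0.41 to 2.37), and Myc, the growth regulator, had 4 and 9 UMIs (2.64, 0.79 to 4.79). The nuclear factors Ier2 and Ier5 parted. Ier2 had 25.1 and 36.0 CPM (0.52, 0.19 to 0.85), under 2-fold, and Ier5 had 2.56 and 17.2 CPM (2.75, 2.03 to 3.52).

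All 7 feedback and signalling genes were past 2-fold. Dusp1, the phosphatase that switches off MAP kinases, had 24.2 and 64.9 CPM (1.43, 1.14 to 1.71), with 0.77 under stricter marker limits and 0.56 under 8 Malat1 UMIs. Zfp36, which marks AU-rich messenger RNA for decay, had 22.7 and 46.5 CPM and lay at the threshold (1.03, 0.72 to 1.34), which it missed under 5 of the alternatives (-0.087 to 0.96). Ier3, a survival factor, had 4 and 31 UMIs (4.42, 2.92 to 6.38). Gadd45b, a stress sensor, had 6 and 37 UMIs (4.09, 2.83 to 5.63), and Socs3, the inhibitor of cytokine receptors, 8 and 26 UMIs (3.17, 1.98 to 4.52). Ier3, Gadd45b and Socs3 were thus rare in the control, with under 10 UMIs over all 2867 barcodes each. Btg2, an antiproliferative gene, had 4.34 and 31.4 CPM (2.85, 2.31 to 3.42), and Rhob, a short-lived GTPase, 4.46 and 24.3 CPM (2.45, 1.88 to 3.03).

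The heat shock members did not share this direction. Of the inducible chaperones, Hspb1 (HSP27) was lower in the tetYAP library, at 30.2 and 6.77 CPM, a log2 ratio of -2.16 (-2.86 to -1.53). Hspa1b was lower, at 17.2 and 7.38 CPM (-1.22, -1.90 to -0.59), while its near copy Hspa1a was higher, at 23 and 17 UMIs or 2.56 and 5.23 CPM (1.03, 0.03 to 2.0). Neither call held throughout: Hspa1b was at -0.71 without mitochondrial and top genes in the total and at 0.77 in barcodes with at most 30% mitochondrial UMIs, and Hspa1a at 0.49 under stricter marker limits and 0.47 after thinning. Summed, the copies had a log2 ratio of -0.64 (-1.17 to -0.15). Hspa1b made up 87.0% (81.1 to 91.6) of the UMIs of both copies in hepatocyte-like control barcodes and 58.5% (42.1 to 73.7) in tetYAP ones. It made up 50.6% (39.0 to 62.2) and 43.1% (36.4 to 49.9) in endothelial cell-like barcodes, and 58.3% (40.8 to 74.5) and 49.3% (40.7 to 57.9) in macrophage-like ones. The control hepatocyte-like share thus stood apart from the other 5, whose values ran from 43.1% to 58.5%, and how the copies were split in counting was not tested. Dnajb1, the HSP40 that works with HSP70, had 10.9 and 11.4 CPM (0.06, -0.53 to 0.62), and Hsph1 (HSP110) 24.3 and 21.5 CPM (-0.17, -0.58 to 0.22), each with an interval that holds 0.

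The other 5 heat shock members were well counted, and their ratios were under 2-fold. Hspa8, the HSC70 of unstressed cells, had 586 and 612 CPM (0.06, -0.01 to 0.14). Hsp90ab1 had 461 and 343 CPM (-0.43, -0.52 to -0.33), Hsp90aa1, the stress-responsive HSP90, 177 and 124 CPM (-0.51, -0.67 to -0.35), and Dnaja1, an HSP40, 172 and 132 CPM (-0.38, -0.54 to -0.23). Hspa5 (BiP), the chaperone of the endoplasmic reticulum, had 479 and 633 CPM (0.40, 0.33 to 0.48). With mitochondrial genes and the 50 most abundant genes left out of the total, the heat shock median was 0.23 and that of all genes 0.40, so the sign of these ratios follows the scaling. Relative to all genes the median was -0.17 under both scalings, and that of the immediate early members 2.74.

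A ratio of UMIs inside the same barcodes does not depend on the total. Immediate early over heat shock UMIs stood at 0.118 in hepatocyte-like control barcodes and at 0.336 in tetYAP ones, a log2 difference of 1.51 (1.41 to 1.61). In macrophage-like barcodes the order was reversed, at 2.71 and 1.42 (-0.93, -1.12 to -0.75), and in endothelial cell-like barcodes the values were 1.52 and 1.34 (-0.18, -0.32 to -0.04). By Malat1, the log2 difference in endothelial cell-like barcodes was -0.05 (-0.19 to 0.10) with at least 8 UMIs and -1.67 (-2.37 to -0.97) with fewer, and in macrophage-like ones -0.74 (-0.94 to -0.53) and -1.77 (-2.26 to -1.29). As a share of the UMIs of all 33 members, immediate early UMIs were 10.5% (10.1 to 11) and 25.1% (24.2 to 26.1) in hepatocyte-like, 73.0% (70.5 to 75.5) and 58.7% (57.7 to 59.6) in macrophage-like, and 60.3% (58.1 to 62.4) and 57.2% (56.1 to 58.3) in endothelial cell-like barcodes. In both libraries the hepatocyte-like share was below those of the other pair of classes. Within the heat shock set, the 5 inducible chaperones made up 7.52% (7.02 to 8.05) of the UMIs of these 5 with Hspa8 and Hsp90ab1 in hepatocyte-like control barcodes and 5.19% (4.46 to 6.01) in tetYAP ones. The same share was 21.8% (18.3 to 25.7) and 14.6% (13.1 to 16.1) in endothelial cell-like and 18.8% (13.9 to 24.5) and 9.06% (8.0 to 10.2) in macrophage-like barcodes. This share was lower in the tetYAP library in each of the 3 classes, with intervals apart in each. In endothelial cell-like barcodes the inducible sum had 365 and 331 CPM, while Hspa8 had 665 and 1102 CPM. In macrophage-like ones that sum had 320 and 193 CPM. Among hepatocyte-like subsets the intervals of the share overlapped under 30% and at 30 to 50% mitochondrial UMIs, and with at least 8 Malat1 UMIs. They were apart over 50% mitochondrial UMIs and under 8 Malat1 UMIs. In hepatocyte-like barcodes Hspb1 alone gave 271 of the 764 inducible UMIs in the control and 22 of the 170 in the tetYAP library. By CPM in that class Hspa1b was lower, Hspa1a was higher, and the intervals of Dnajb1 and Hsph1 held 0.

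**Figure D2:**
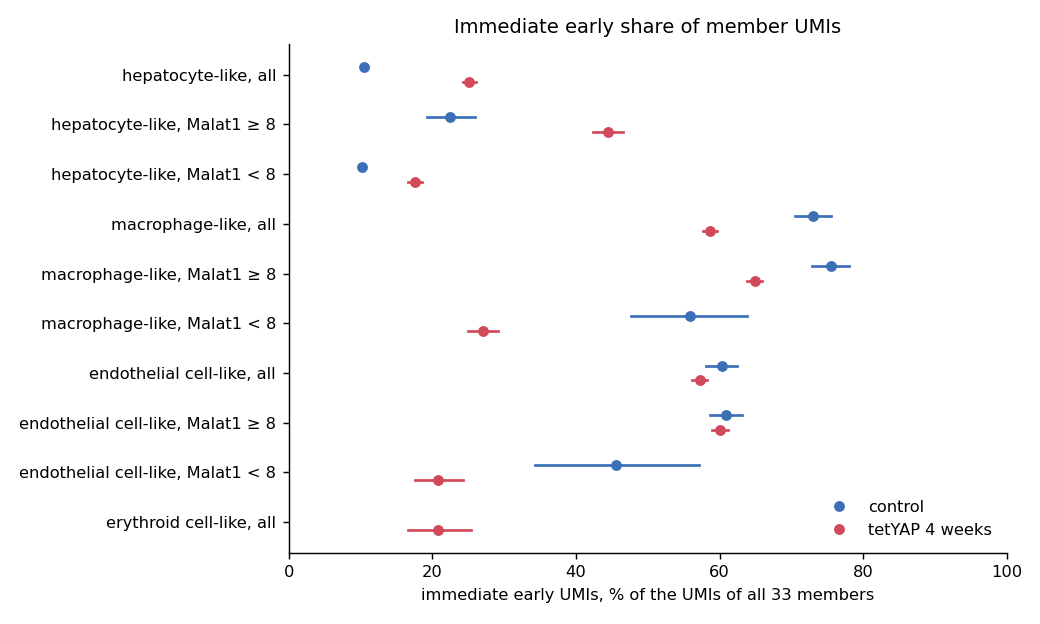
Immediate early UMIs as a percentage of the UMIs of all 33 members, by class and by Malat1 UMIs of the barcode, in the control (blue) and the tetYAP library (red), with exact 95% binomial intervals. Hepatocyte-like points lie at 10.5% and 25.1%, the macrophage-like ones at 73.0% and 58.7%, and tetYAP barcodes with under 8 Malat1 UMIs lie far below those with 8 or more in all 3 classes.

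Within the other classes the immediate early medians were smaller and the ratios of mixed sign. In macrophage-like barcodes 22 members passed the minimum, 3 were called higher (Nr4a1, Klf4 and Ier3) and 2 lower (Fosb and Egr1), where 3.35% of 8390 genes were called higher and 27.2% lower. Their median was -0.44 (-1.12 to 0.31) and that of all genes -0.49. Under 3 UMIs a gene was set to a floor of 3. With at least 50 UMIs the medians were -0.44 over 18 members and 0.00 over all genes. Fos had 885 and 453 CPM (-0.97, -1.26 to -0.67), Dusp1 1030 and 549 CPM (-0.91, -1.18 to -0.63), Fosb 443 and 196 CPM (-1.18, -1.59 to -0.74) and Egr1 572 and 264 CPM (-1.11, -1.48 to -0.73). These 4 were lower in the tetYAP library with intervals below 0. Klf4 had 6 and 158 UMIs (1.48, 0.32 to 2.94), and Klf2 649 and 691 CPM (0.09, -0.23 to 0.43). Nr4a1 had 4 and 82 UMIs (1.11, -0.30 to 3.02), with an interval that holds 0, and Ier3 3 and 87 UMIs (1.61, 0.02 to 3.92). Of the heat shock members 0 were called higher and 3 lower, Hspa1a (-1.0, -1.82 to -0.09), Hspa1b (-1.53, -2.25 to -0.75) and Hspb1 with 3 and 7 UMIs (-2.02, -4.15 to 0.56). With TMM factors (the edgeR scaling of library totals), which moved each ratio of this class up, Fosb stood at -0.92, Egr1 at -0.86 and Hspa1a at -0.74, so these 3 lower calls ended. After thinning to 1000 UMIs Klf4 stood at 0.28 and Nr4a1 and Ier3 at -0.47, so these 3 higher calls ended too, in control counts that were then at or under the floor.

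In endothelial cell-like barcodes 20 immediate early members passed the minimum and 4 were called higher (Atf3, Cebpd, Ier3 and Btg2) and 0 lower, where 11.1% of 8663 genes were called higher and 7.80% lower. Their median was 0.59 (-0.13 to 1.0), and that of all genes 0.14. Atf3 had 3 and 22 UMIs (1.19, -0.54 to 3.58), Cebpd 3 and 45 (2.22, 0.59 to 4.56) and Ier3 6 and 39 (1.02, -0.23 to 2.55). The intervals of Atf3 and Ier3 thus held 0, and Ier3 missed 2-fold under 4 alternatives, at 0.80 to 0.94. Jun had 427 and 649 CPM (0.60, 0.33 to 0.89), Rhob 143 and 275 CPM (0.94, 0.48 to 1.43) and Btg2 35.8 and 103 CPM (1.52, 0.62 to 2.56). Fos had 593 and 458 CPM (-0.37, -0.62 to -0.12), Dusp1 603 and 427 CPM (-0.50, -0.75 to -0.24) and Zfp36 218 and 153 CPM (-0.51, -0.93 to -0.07). Jun and Fos, partners in AP-1, thus lay on opposite sides of 0 in this class. The 10 heat shock members had 0 calls in either direction and a median of 0.18 (-0.47 to 0.71).

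**Figure D3:**
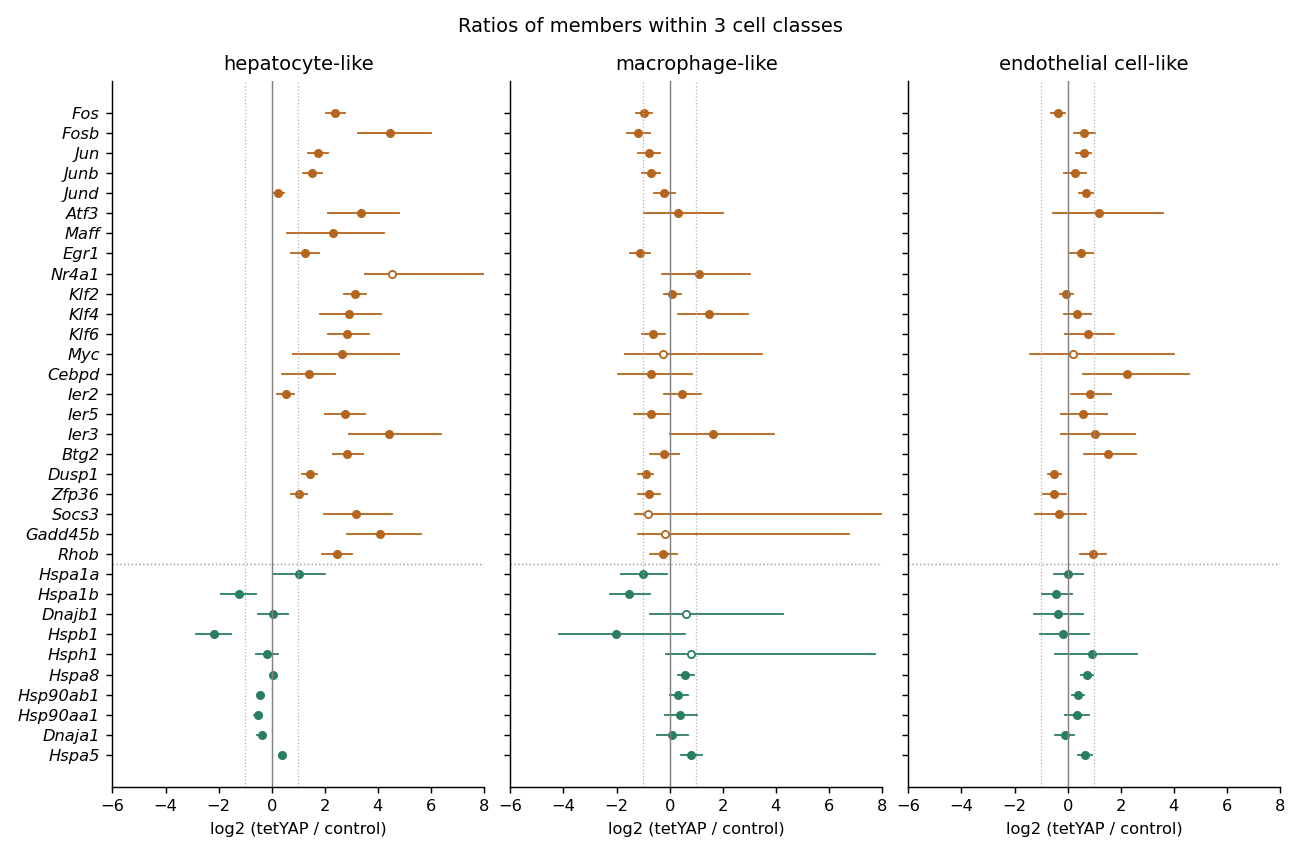
Log2 ratios of tetYAP over control for each member within hepatocyte-like, macrophage-like and endothelial cell-like barcodes, with exact conditional binomial 95% intervals for counting error, immediate early members in brown and heat shock members in green. Open points rest on the floor of 3 UMIs, bars end at the axis limits, and dotted lines mark 2-fold. All immediate early points lie right of 0 in hepatocyte-like barcodes and on both sides of it in the other classes.

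Over all barcodes all 23 immediate early members were called higher, with a median of 2.89 (2.57 to 3.33), where 38.3% of 12621 genes were called higher and 7.89% lower and the median of all genes was 0.60. The heat shock median was 0.36 (0.18 to 0.56), with 2 called higher (Hspa1a and Dnajb1) and 1 lower (Hspb1). Where the UMIs lay differed between the libraries. Hepatocyte-like barcodes held 47.9% (46.4 to 49.4) of the immediate early UMIs in the control and 12.7% (12.2 to 13.2) in the tetYAP library, but 94.4% and 48.0% of all UMIs. They held 92.8% and 34.4% of the heat shock UMIs. Macrophage-like barcodes held 21.2% (19.95 to 22.4) and 36.9% (36.1 to 37.6) of the immediate early UMIs with 1.38% and 18.3% of all UMIs, and endothelial cell-like ones 28.2% (26.9 to 29.6) and 28.4% (27.7 to 29.1) with 3.23% and 14.5%. The pooled ratio therefore also follows the number of barcodes of each class.

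Endothelial cell-like and macrophage-like barcodes held most immediate early members at a higher level than hepatocyte-like ones. In the control, 19 members passed the minimum for endothelial cell-like over hepatocyte-like barcodes and all 19 were past 2-fold, against 51.5% of all genes, with a median log2 ratio of 4.64 (3.38 to 5.25) where that of all genes was 1.06. For macrophage-like over hepatocyte-like barcodes it was 17 of 17 that passed, against 65.1% of all genes, at 5.61 (5.09 to 6.67) and 1.66. Members passed the minimum through the class where they were high, so these counts describe and do not support. In the tetYAP library the contrast was smaller: 20 of 23 members were past 2-fold higher in endothelial cell-like barcodes and 2 lower (Nr4a1 and Gadd45b), against 54.3% of all genes, at 2.19 (1.56 to 2.95) and 1.11, and 20 of 23 in macrophage-like barcodes, against 43.1%, at 2.83 (2.27 to 3.30) and 0.83. The heat shock medians for these 4 contrasts were 0.59, 0.38, 1.16 and 1.04, in the same order.

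By level, macrophage-like barcodes were the highest of the 3 compared classes for 19 of 23 immediate early members in the control, with an interval apart from the next class for 10 of them. Dusp1 had 1030 CPM there, 603 in endothelial cell-like and 24.2 in hepatocyte-like barcodes. Egr1 had 572, 189 and 7.35 CPM in the same order, and Klf6 412, 42.4 and 2.34. Endothelial cell-like barcodes were the highest for Jun, Klf4 and Socs3, and the interval of Jun overlapped that of macrophage-like barcodes, at 427 and 420 CPM. Among the 8 classes of the tetYAP library, 13 immediate early members were highest in the 22 neutrophil or monocyte-like barcodes. A further 6 were highest in endothelial cell-like, 2 in macrophage-like and 1 each in B cell-like and T or NK cell-like ones. These ranks used no minimum of UMIs. Maff rested on 1 UMI in neutrophil or monocyte-like barcodes. In macrophage-like control barcodes Gadd45b rested on 1 UMI and Myc on 2, all under the floor of 3. How often other genes were highest in each class was not counted. Hepatocyte-like barcodes were the lowest of the 3 classes for 21 of 23 members in the control, and of the 8 classes for 2 in the tetYAP library, where erythroid cell-like ones were the lowest for 14 and stellate cell-like ones for 7. The interval of the highest class was apart from the next for 5 of 23, Nr4a1, Zfp36 and Socs3 in neutrophil or monocyte-like and Jun and Fosb in endothelial cell-like barcodes. Nr4a1 had 238 CPM in neutrophil or monocyte-like and 68.2 in B cell-like barcodes, the next class. Junb was nearly as high in T or NK cell-like barcodes, at 711 CPM, as in neutrophil or monocyte-like ones, at 852, with overlapping intervals.

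The inducible HSP70 copies were highest in endothelial cell-like barcodes of the tetYAP library, with intervals apart from the next class: Hspa1a had 125 CPM and Hspa1b 94.4, against 57.2 and 55.6 in macrophage-like barcodes. In neutrophil or monocyte-like barcodes, where many immediate early members were highest, Hspa1a had 2 UMIs and Hspa1b 1 UMI, both under the floor of 3. Hspa8 ranged from 569 CPM in erythroid cell-like to 1301 in neutrophil or monocyte-like barcodes, and its intervals in the latter and in T or NK cell-like barcodes, at 1235 CPM, overlapped. Immediate early UMIs per barcode were 27.3 (25.1 to 29.5) in neutrophil or monocyte-like, 24.3 (23.6 to 25) in endothelial cell-like, 21.4 (20.9 to 22.0) in macrophage-like, 12.9 (11.9 to 14.1) in B cell-like, 12.7 (12 to 13.4) in T or NK cell-like, 2.38 (1.77 to 3.14) in stellate cell-like and 1.80 (1.41 to 2.27) in erythroid cell-like barcodes. Hepatocyte-like barcodes, with 2.69, stood at the low end with the last pair.

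**Figure D4:**
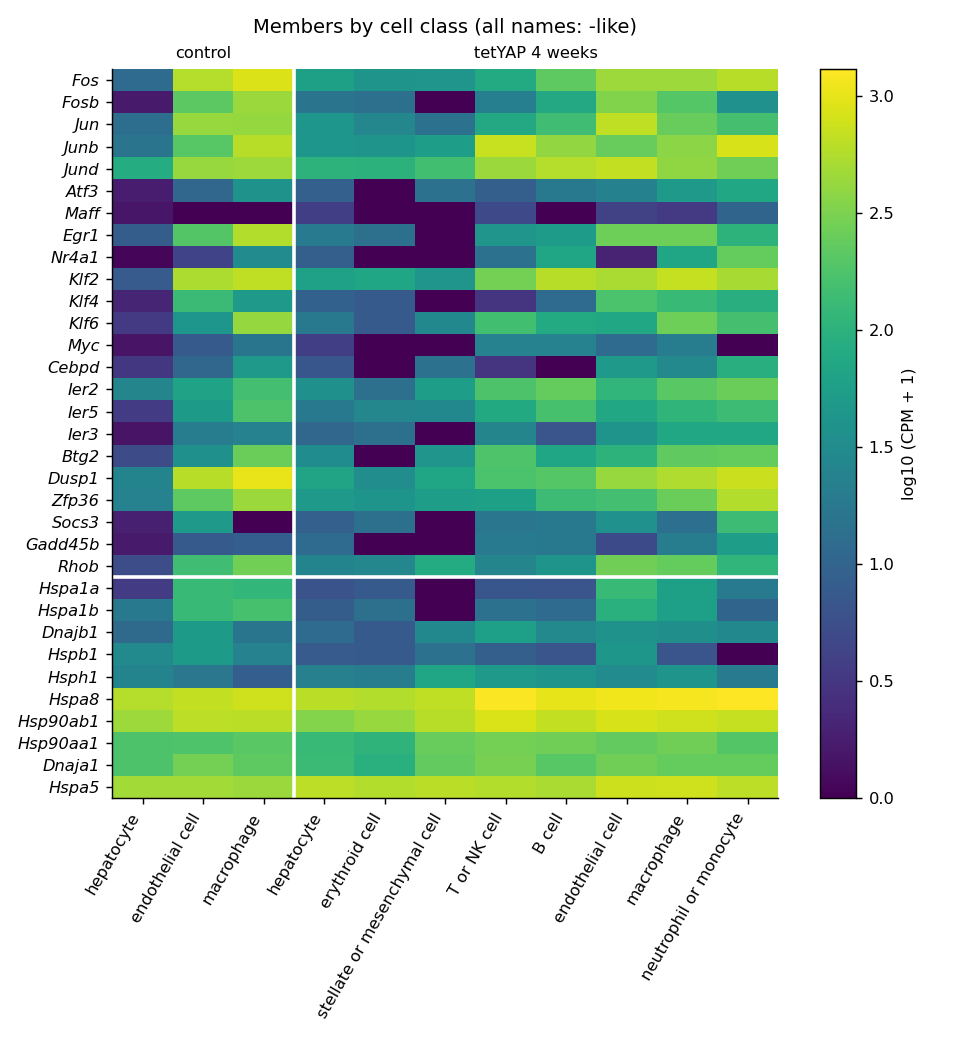
Levels of the 33 members, as log10 of CPM plus 1, in the classes with at least 20 barcodes of each library. Most immediate early rows are darker in hepatocyte-like columns than in endothelial cell-like and macrophage-like ones, as for Dusp1 with 24.2 CPM in hepatocyte-like and 1030 CPM in macrophage-like control barcodes. Exceptions are Nr4a1 and Gadd45b in the endothelial cell-like column of the tetYAP library, Maff, and Socs3 in the macrophage-like column of the control, while Hspa8, Hsp90ab1 and Hspa5 are bright in every column.

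In hepatocyte-like barcodes 37 of 2867 (1.29%, 0.910 to 1.77) in the control and 71 of 769 (9.23%) in the tetYAP library had at least 5 immediate early UMIs, and these held 16% and 51.4% of the immediate early UMIs of the class. They were picked by those same UMIs, so the shares are a description. Depth differs, so each barcode was thinned to 1000 UMIs, which left out 25 hepatocyte-like control barcodes and 0 tetYAP ones. At least 1 immediate early UMI was then found in 17.9% (16.5 to 19.4) of hepatocyte-like control barcodes and in 34.1% (30.7 to 37.5) of tetYAP ones, against 45.1% and 76.6% before thinning. Erythroid cell-like tetYAP barcodes, of a cell that loses its nucleus as it matures, were set beside them, with 32.5% (18.6 to 49.1), and 62.5% before thinning, at median depths of 3414 and, for hepatocyte-like barcodes, 3995 UMIs. The thinned tetYAP hepatocyte-like share for 1 UMI was thus not above that of the erythroid cell-like ones beyond counting error. Before thinning, immediate early UMIs per barcode were 2.69 (2.58 to 2.81) in hepatocyte-like and 1.80 (1.41 to 2.27) in erythroid cell-like tetYAP barcodes, with intervals apart. Without mitochondrial UMIs in the total they stood at 1367 and 697 CPM. As a background the erythroid cell-like class is limited. Its 5 control barcodes held 5.20 (3.40 to 7.62) immediate early UMIs and 5.8 endothelial marker UMIs each, with 22 of their 26 immediate early UMIs in 1 barcode. At least 3 UMIs were found in 0.598% of control and 3.90% of tetYAP hepatocyte-like barcodes and in 0 of 40 erythroid cell-like ones, which allows a share of up to 8.81% by the exact interval. An inducible chaperone UMI was found in 8.02% (7.05 to 9.08) and 4.29% (2.97 to 5.97) of thinned hepatocyte-like barcodes and in 0 of 40 erythroid cell-like ones. After thinning, the immediate early share was thus higher and the inducible chaperone share lower in the tetYAP library. Thinning kept mitochondrial UMIs, which were 53.4% (tetYAP) and 29.0% (control) of hepatocyte-like UMIs. Without them in the total, the inducible sum was 112 CPM (tetYAP) against 120 CPM (control), and with them 52.3 against 85.1 CPM. The immediate early sum without them was 1367 against 325 CPM. The inducible difference was thus small without mitochondrial UMIs, and the immediate early one was not.

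The barcodes also differed in Malat1, a nuclear non-coding RNA that marks how much nuclear RNA a barcode holds. At least 8 Malat1 UMIs were in 59 of 2867 hepatocyte-like control barcodes and in 118 of 769 tetYAP ones. Immediate early UMIs per barcode were 2.37 (2.0 to 2.80) and 8.71 (8.19 to 9.26) in these, and 0.688 (0.658 to 0.719) and 1.60 (1.51 to 1.70) in the others. The median log2 ratio of the immediate early members was 1.62 (0.89 to 3.71) over 20 members with 8 or more Malat1 UMIs. It was 1.57 (0.72 to 2.74) over 21 members with fewer, and 2.64 in the whole class. The 1.62 rests in part on the floor, as Fosb, Atf3, Nr4a1, Klf4, Ier3 and Socs3 had 0 UMIs in the 59 control barcodes. Summed immediate early UMIs stood at 594 and 2121 CPM in the rich barcodes of the control and the tetYAP library. They stood at 221 and 377 CPM in the poor barcodes and at 231 and 637 CPM in the whole class. Fos had 38.2 and 243 CPM in the Malat1-rich and 10.4 and 25.7 CPM in the Malat1-poor barcodes of the control and the tetYAP library. Zfp36 had 67.9 and 196 CPM in the rich and 21.5 and 20.2 CPM in the poor barcodes, so its difference was seen in the former. Immediate early over heat shock UMIs differed between the libraries by a log2 of 1.46 (1.17 to 1.76) in the rich and 0.92 (0.80 to 1.04) in the poor barcodes.

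Malat1 parted the immediate early genes in the other classes too. In tetYAP macrophage-like barcodes the 173 with at least 8 Malat1 UMIs had 32.2 immediate early UMIs each (31.4 to 33) and the other 108 had 4.21 (3.83 to 4.62), and in endothelial cell-like ones the 147 had 30.7 (29.8 to 31.6) and the other 44 had 2.82 (2.34 to 3.36). Heat shock UMIs were 17.4 and 11.4, and 20.4 and 10.7, in the same barcodes. The immediate early share of member UMIs was 64.9% and 27.0% in macrophage-like and 60.1% and 20.8% in endothelial cell-like barcodes, beside 20.7% (16.6 to 25.4) in erythroid cell-like ones. In the control, macrophage-like barcodes had 36.1 and 9.56 immediate early UMIs each, over 23 and 9 barcodes. Per barcode both sets were thus higher in Malat1-rich barcodes, and the immediate early genes by more. Without mitochondrial UMIs in the total, heat shock members had 5103 CPM in Malat1-rich and 4665 CPM in Malat1-poor tetYAP macrophage-like barcodes. In endothelial cell-like ones they had 4846 and 4634 CPM. The immediate early members had 9419 and 1725 CPM, and 7304 and 1220 CPM, in the same order. The part that loss of nuclear RNA has in the differences between libraries was not tested.

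By mitochondrial share, immediate early UMIs per hepatocyte-like tetYAP barcode were 7.83 (7.34 to 8.35) in the 120 barcodes under 30%, 2.77 (2.52 to 3.04) in the 159 from 30 to 50% and 1.41 (1.31 to 1.52) in the 490 over 50%. In the control they were 0.744, 0.689 and 0.683 in 1763, 1063 and 41 barcodes, with overlapping intervals. The immediate early share of member UMIs was 39.4%, 22.9% and 17.6% in the same tetYAP order, and was 10.5%, 10.5% and 18.7% in the control. With 30% as the upper limit the median log2 ratio of the immediate early members was 4.27 (3.27 to 5.20) and that of all genes 0.99. The heat shock median was 0.73 and Hspa1b turned to 0.77, below the median of all genes. The part that the mitochondrial share has in the difference between the libraries was not tested.

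Other genes of the same responses gave a smaller contrast. Of 30 further immediate early genes 25 passed the minimum in hepatocyte-like barcodes, 12 were called higher and 0 lower, beside 19.2% and 14.1% of all genes, and their median was 0.80 (0.49 to 1.65) beside -0.10. The highest 3 of the 15 with at least 50 UMIs were Ppp1r15a, the phosphatase subunit that restarts translation, with 22 and 28 UMIs (1.81, 0.96 to 2.69), Dusp6, an ERK phosphatase (1.47, 0.92 to 2.01), and Sgk1, a kinase (1.40, 0.96 to 1.84). The lowest 3 were Gadd45g, a relative of Gadd45b (-0.84, -1.38 to -0.34), the circadian repressor Nfil3 (-0.84, -1.43 to -0.29) and the EGFR inhibitor Errfi1, which had 283 and 172 CPM (-0.72, -0.86 to -0.59). Immediate early genes of this second list thus lay on both sides of 0, unlike the 23 members.

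Of 28 further cytosolic and mitochondrial chaperone genes 1 was called higher and 3 lower, beside the same shares of all genes, with a median of -0.60 (-0.95 to -0.23). The higher one was Cryab, a small heat shock protein, with 13 and 50 UMIs (3.41, 2.51 to 4.41), and next came Hspa14 (0.18, -0.55 to 0.87) and Dnajb4 (-0.05, -0.51 to 0.40). The lowest were the mitochondrial co-chaperonin Hspe1, with 597 and 228 CPM (-1.39, -1.5 to -1.28), the HSP90 co-chaperone Ptges3 (-1.29, -1.53 to -1.06) and the mitochondrial Dnaja3 (-1.07, -1.53 to -0.63). Of 22 further genes of the endoplasmic reticulum 0 were called higher and 1 lower, with a median of -0.03 (-0.33 to 0.18). Creld2 (0.69, 0.40 to 0.98), Sel1l (0.62, 0.40 to 0.84) and Hsp90b1 (0.37, 0.29 to 0.46) were highest, and the unfolded protein response factors Xbp1 (-1.01, -1.23 to -0.80) and Atf4 (-1.0, -1.29 to -0.72) were lowest with Sdf2l1 (-0.66, -0.98 to -0.35).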

How the data were processed

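Raw counts (whole UMIs for each gene in each barcode) were deposited by the authors in 1 table. Per the labels and the methods, reads were processed with Cell Ranger at default settings against mm10 and handled in Seurat 3, and barcodes were down-sampled per condition and capped in UMIs (highest here 7493, lowest 516). No column lacked a sample. The genotype label set the group, with 1 library each, so no test was made.

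The members, companion and marker lists were chosen with earlier results of these data known, and the class limits after the marker UMIs were seen. UMIs were summed per gene, class and library and divided by the class total (CPM). Intervals are 95% and exact: Poisson for sums, Clopper-Pearson for shares, conditional binomial for ratios. For immediate early over heat shock UMIs between libraries a normal interval of the log odds ratio was used. They cover counting error only. Sums under 3 UMIs were set to a floor of 3 in ratios, genes needed 10 UMIs over both libraries, and a median carries the medians of its members' bounds. No doublet caller was run, so doublets within a class remain. Named were all 33 members, Yap1, Malat1, Xist, the 4 Y-linked genes and, of each companion list, the 3 highest and 3 lowest ratios among genes with at least 50 UMIs. Gene starts and promoters are from RefSeq (GRCm38.p6). The functions were tested on simulated data. Alternatives were edgeR 4.0.16 TMM factors, other totals, minima, an offset of 0.5, other barcode limits, equal weights, scanpy 1.11.5 clusters without the members, and thinning. Limits on Malat1 (8 UMIs), and all alternatives in macrophage-like and endothelial cell-like barcodes, were added after the data were seen. Python 3.11.15, scipy 1.17.1 and R 4.3.3 were used.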

Additional observations from a re-analysis of the deposited data

Results flagged for a closer look

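Members past 2-fold in opposite directions in hepatocyte-like and macrophage-like barcodes, each with an interval apart from 0, were Fosb (log2 4.47 and -1.18), Egr1 (1.25 and -1.11) and Hspa1a (1.03 and -1.0). With TMM factors the macrophage-like values were -0.92, -0.86 and -0.74, so none of the 3 was past 2-fold there. With 1 library per group the difference between the classes was not tested. Hspa1a rests on 23 and 17 UMIs in hepatocyte-like and 15 and 71 in macrophage-like barcodes, and how its reads were split from those of Hspa1b was not tested.

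The barcodes with markers of several classes, which no comparison used, held immediate early genes at 3586 CPM (3366 to 3818) in 51 tetYAP barcodes and at 1937 CPM (1371 to 2658) in 4 control barcodes. Their heat shock members stood at 3623 and 2497 CPM.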

How the results depend on the processing

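Among immediate early members in hepatocyte-like barcodes, 252 values under 12 alternatives held 1 below 0 and 0 below the median of all genes. Other minima leave the ratio of a gene as it was, and TMM factors and other totals shift all genes alike. Values under these settings therefore repeat the main ones and add no check. The immediate early median (2.64) went to other values with at most 30% mitochondrial UMIs (4.27) and with at least 8 (1.62) or under 8 (1.57) Malat1 UMIs. The 1.62 rests in part on control counts set to the floor. The heat shock median moved to 0.23 without mitochondrial and top genes in the total, to 0.73 at 30% mitochondrial UMIs and to 0.16 with at least 8 Malat1 UMIs. Of the 33 members 22 were called higher in the main values, 21 immediate early ones and Hspa1a, beside 19.2% of all genes. This number was 12 with at least 50 UMIs and 12 after thinning to 1000 UMIs, where fewer members were counted. Members called lower went from 2 to 1, with Hspa1b lost, without mitochondrial and top genes and at 30%. Calls over all genes were not counted under these alternatives, so the numbers of calls cannot be set against them. The log2 ratio of immediate early over heat shock UMIs, 1.51, was 2.48 at 30%, 1.39 with equal weights, 1.26 with stricter marker limits, 1.08 with clusters and 0.92 under 8 Malat1 UMIs. The cause of these shifts was not tested.

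Under 8 Malat1 UMIs the immediate early median was -1.57 in macrophage-like (9 control barcodes) and -1.27 in endothelial cell-like barcodes (7 control barcodes), and the endothelial heat shock median was 0.79. With clusters the endothelial immediate early median was 1.29. Hspa1b turned to 0.77 at 30%, Zfp36 to -0.087 under 8 Malat1 UMIs, and Hspa1a to -0.64 when summed with Hspa1b. In macrophage-like barcodes Nr4a1 and Ier3 turned to -0.47 after thinning to 1000 UMIs, with the control at or under the floor. Thinned to 2000 UMIs, 32.1% of control and 55.5% of tetYAP hepatocyte-like barcodes had an immediate early UMI. No paired analysis was possible because each group has 1 library and no result comes from a test. For the same reason no replicate could be left out, and depth limits the rare members, with under 10 control UMIs for Fosb, Atf3, Maff, Nr4a1, Myc, Ier3, Socs3 and Gadd45b.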
